A study of Rattus norvegicus with 21 samples.

Results

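Early reperfusion was compared with permanent ligation in the infarct zone of Sprague Dawley rat hearts. In 3 libraries titled MI1h_R the left anterior descending coronary artery had been tied for 1 h and then reopened, and in 3 libraries titled MI24h it had stayed tied for 24 h. Hearts of both groups were taken 24 h after the infarction. These 6 libraries were picked by their titles from 21 in all, and every gene symbol that passed a low-count filter was compared, 11742 of 17085. Beside them stood MI6h_R, in which the artery was tied for 6 h before reopening, and Sham hearts, both with 3 libraries. MI6h_R hearts were also taken at 24 h, so between MI1h_R and MI6h_R time tied and time reopened cannot be told apart. No collection time was listed for Sham. Another 3 groups of 3 carry the letter F in their titles, MI1h-23h-F, MI24h-F and MI6h-18h-F. The design text names a pretreatment with fenofibrate, an agonist of the lipid-sensing receptor PPAR alpha, but the labels do not spell out what the letter F stands for. The labels give no age or sex, and they do not say whether each library came from a separate animal. The p-values therefore measure only the spread between libraries, pooled over all 7 groups, which may be technical. For MI1h_R a label field drops the R, and the titles were followed.

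When a coronary artery is closed, the muscle it feeds loses oxygen. The prolyl hydroxylases that mark the hypoxia-inducible factors (HIF) for destruction need oxygen, so HIF builds up and switches on glucose carriers, glycolytic enzymes, vascular growth factors and the hydroxylases themselves. Reopening the artery brings back oxygen and blood cells, and the injured wall passes through a neutrophil phase, a macrophage phase and a phase of dividing cells, matrix and new vessels.

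The 6 libraries did not split cleanly by group. Library totals ran from 12208041 to 13834832 expected counts in MI1h_R and from 13389749 to 14763672 in MI24h. On the first principal component of the 6 libraries, which held 49.1% of the variance, MI1h_R replicates 11, 31 and 41 stood at 41.53, 53.17 and -5.54, against -63, -19.16 and -7 for MI24h replicates 11, 21 and 41. MI1h_R replicate 41 correlated more closely with MI24h replicate 21 (Pearson's r over genes 0.975) than with MI1h_R replicates 11 (0.959) or 31 (0.950). The match was mutual, since MI24h replicate 21 correlated at 0.966 and 0.970 with MI24h replicates 11 and 41. These libraries therefore resemble each other more than their own groups, and their labels could not be checked further here. MI24h replicate 11 stood farthest from the MI1h_R libraries, at 0.912 to 0.947. Results that rest on one of these libraries are given with and without it.

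In a quasi-likelihood fit of all 21 libraries (edgeR), 507 genes differed between MI1h_R and MI24h at a Benjamini-Hochberg adjusted p under 0.05, which is what "called" means throughout. Of the genes tested, 177 were higher in MI1h_R (1.51%) and 330 were lower (2.81%). The median log2 fold change over all genes was 0.001. Of all 11742 genes, 1258 were lower in every MI1h_R library than in any MI24h library, and 1309 were higher in every one. Of the called genes, 319 of the 330 lower and 172 of the 177 higher ones showed no such overlap, so a lack of overlap adds little to a call. Of the called genes, 9 higher and 56 lower ones kept their call whichever of the 6 libraries was left out. Leaving out MI24h replicate 11 left 9 higher and 59 lower genes, leaving out MI1h_R replicate 31 left 26 and 77, and leaving out MI1h_R replicate 11 left 52 and 133. Without MI1h_R replicate 41 the counts were 376 and 567, and without MI24h replicate 21 they were 192 and 410. The calls, also those with a library left out, draw on the spread pooled over all groups, the F groups included. A fit to the 6 libraries alone called 0 genes, with 1837 at an unadjusted p under 0.05, while a fit to MI1h-23h-F and MI24h-F alone called 3458. A fit of the 12 libraries without F called 16 higher and 57 lower. Of the genes that kept their call above, 9 higher and 44 lower ones were also called there. DESeq2 on all libraries called 408 and 639.

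**Figure D1:**
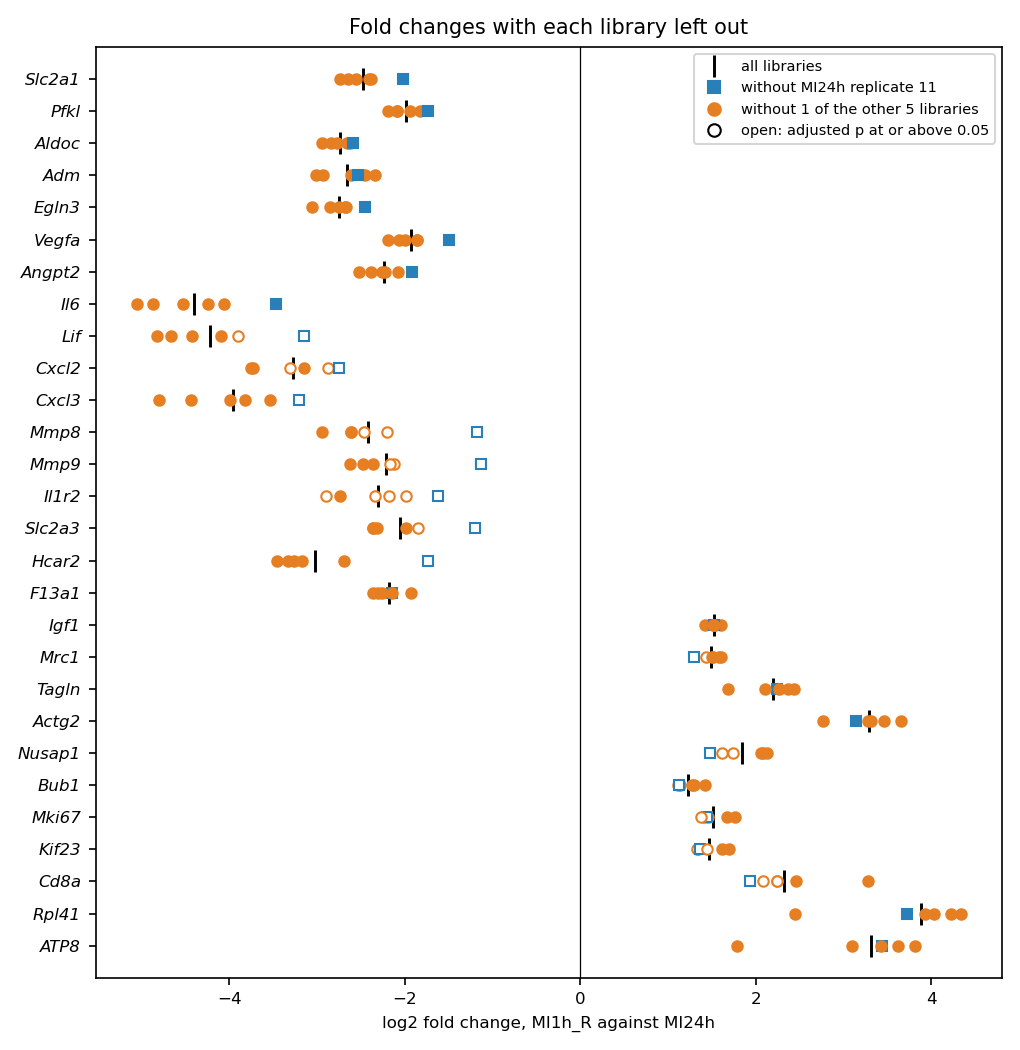
Log2 fold change of MI1h_R over MI24h for 28 genes (horizontal axis), with all libraries (black bars), without MI24h replicate 11 (blue squares) and without each of the other 5 libraries (orange circles); open symbols mark an adjusted p at or above 0.05. Slc2a1, Pfkl, Adm, Egln3 and F13a1 keep filled symbols throughout, while Mmp8, Mmp9 and Hcar2 move toward 0 and lose the call without MI24h replicate 11.

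Genes of the oxygen response stood lower after early reperfusion. Of 19 tested members of a list of HIF-linked genes outside glycolysis, 13 were lower, 0 were higher, and 6 did not pass the test, beside 2.81% of all genes called lower. Here and in the lists below, members and lists were chosen with earlier results of these data known. The share of all genes is therefore given for scale and is no independent test of a list. The log2 fold change of all 19 was negative, with a median of -1.33. The number lower was 7 without MI24h replicate 11, 8 without MI1h_R replicate 31 and 16 without MI24h replicate 21; 7 members, Adm, Bhlhe40, Egln1, Egln3, Ero1a, Stc2 and Vegfa, kept the call whichever library was left out. In a bulk library, less RNA per cell cannot be told apart from fewer cells that carry it.

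Egln3, an oxygen-sensing prolyl hydroxylase that HIF itself switches on, stood at 73.4, 83.3 and 65.3 normalised CPM (read counts scaled to a common library size) in MI1h_R libraries, against 688.2, 265.4 and 543.5 CPM in MI24h libraries. The groups did not overlap, and the fitted level was 6.74-fold lower in MI1h_R (log2 fold change -2.75 ± 0.47 SE, adjusted p = 0.00471). Its relative Egln1, the main hydroxylase acting on HIF, was at 88.1, 76.6 and 70.7 CPM in MI1h_R and at 232.2, 155.3 and 205.3 CPM in MI24h (-1.33 ± 0.19, adjusted p = 0.00185). Sham hearts also carried Egln3: it averaged 74.0 ± 9.02 CPM in MI1h_R, 499.0 ± 214.9 in MI24h and 356.3 ± 56.5 in Sham (SD, n = 3 each). Relative to Sham, Egln3 was lower in MI1h_R (-2.27, adjusted p = 0.000578), and in MI24h it did not pass the test (0.49, adjusted p = 0.37). Sham libraries differed in make-up and scaling. Mitochondrial genes held 36.3% ± 2.55 of their counts, against 15.3% ± 3.35 in MI1h_R and 16.2% ± 2.17 in MI24h (SD). Scaling factors (TMM) were 0.535 to 0.677 in Sham and 0.996 to 1.16 in the 6 libraries. Of all 11742 genes, 5809 differed from Sham in MI1h_R and 6371 in MI24h. Levels against Sham, here and below, carry that limit.

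Adm, the vasodilator peptide adrenomedullin, stood at 14.1, 7.33 and 9.77 CPM in MI1h_R against 76.4, 28.7 and 91.3 CPM in MI24h, a fitted log2 fold change of -2.65 ± 0.38 (adjusted p = 0.00185). Ero1a, the endoplasmic reticulum oxidase that forms disulphide bonds, was at 37.3, 42.9 and 60.2 CPM in MI1h_R, and at 447.8, 110.1 and 214.3 CPM in MI24h. Its log2 fold change was -2.46 ± 0.39 with all libraries and -1.79 without MI24h replicate 11, called both times. Vegfa, the endothelial growth factor A, was at 94.2, 94.4 and 123.7 CPM in MI1h_R, against 601.2, 232.2 and 353.0 CPM in MI24h (-1.93 ± 0.34, adjusted p = 0.00528). All 3 genes were lower in every MI1h_R library than in any MI24h library, as were 1258 of all 11742 genes tested. The secreted glycoprotein gene Stc2 (-2.13 ± 0.37) and the transcription repressor gene Bhlhe40 (-1.27 ± 0.20) went the same way, at adjusted p = 0.00471 and 0.00254.

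Glucose uptake and glycolysis followed the same direction. Of 18 tested genes of that list, 12 were lower in MI1h_R and 0 were higher, with a median log2 fold change of -1.04. The count lower was 5 without either MI1h_R replicate 31 or MI24h replicate 11, 8 without MI1h_R replicate 11, and 3 in the fit of 12 libraries; Aldoc, Gpi, Pfkl, Slc2a1 and Tpi1 were called whichever library was left out. A pair of abundant enzymes missed the threshold, lactate dehydrogenase A (Ldha, -0.65 ± 0.20, adjusted p = 0.0726) and glyceraldehyde phosphate dehydrogenase (Gapdh, -0.59 ± 0.19, adjusted p = 0.0824).

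Slc2a1, the glucose carrier GLUT1 that most cells use for basal uptake, stood at 70.8, 68.2 and 96.7 CPM in MI1h_R libraries and at 669.9, 254.5 and 383.5 CPM in MI24h libraries. The groups were far apart, with a fitted 5.55-fold lower level in MI1h_R (-2.47 ± 0.35, adjusted p = 0.00185). Pfkl, the liver-type phosphofructokinase at the committed step of glycolysis, had the smallest adjusted p of all genes tested, with 83.2, 68.1 and 112.2 CPM in MI1h_R, against 452.8, 292.5 and 293.9 CPM in MI24h (-1.98 ± 0.21, adjusted p = 0.000243). Its MI1h_R level did not pass the test against Sham (0.36, adjusted p = 0.15), while in MI24h Pfkl was higher than in Sham (2.34, adjusted p = 3.39e-07). The list was mixed against Sham, with 6 of 18 genes higher and 7 lower in MI1h_R, and 11 higher and 4 lower in MI24h. Its summed level was 6813, 6799 and 6113 CPM in MI1h_R, below Sham at 9176, 9573 and 12560 CPM. The MI24h sums of 13720, 9706 and 12320 CPM overlapped those of Sham. Aldoc, an aldolase isoform, was at 2.33, 1.52 and 1.65 CPM in MI1h_R and at 14.7, 10.5 and 11.7 CPM in MI24h (-2.74 ± 0.42, adjusted p = 0.00224). Tpi1 and Gpi, the triose phosphate and glucose phosphate isomerases, changed by -1.14 ± 0.20 and -1.07 ± 0.19.

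The calls of a lactate carrier and a further glucose carrier depended on single libraries. Slc16a3, which exports lactate, was at 17.6, 26.0 and 39.9 CPM in MI1h_R and at 322.1, 115.4 and 151.5 CPM in MI24h (-2.82 ± 0.58, adjusted p = 0.0114). Its call was lost without MI1h_R replicate 11 (-2.57), MI1h_R replicate 31 (-2.77) or MI24h replicate 11 (-2.26). Slc2a3, the high-affinity glucose carrier GLUT3 of neurons and leukocytes, was called at -2.05 ± 0.40 and lost its call without MI1h_R replicate 31 (-1.85) or MI24h replicate 11 (-1.20).

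**Figure D2:**
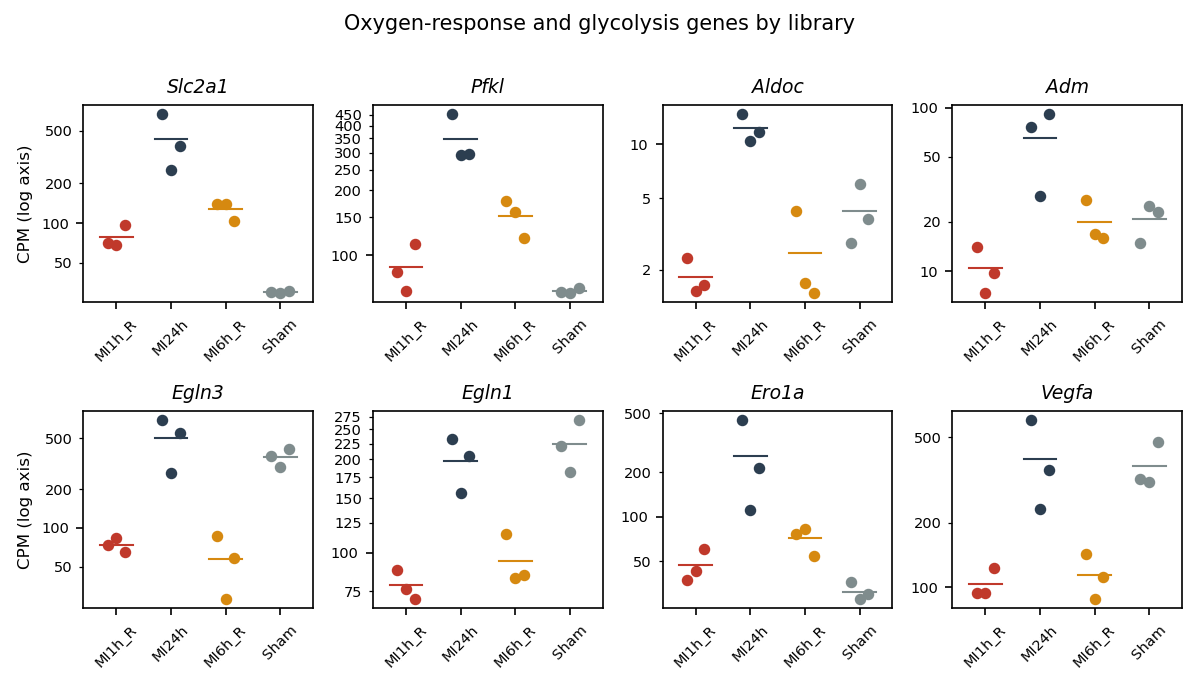
CPM by library (log axis; points are libraries, bars group means) of 8 oxygen-response and glycolysis genes in MI1h_R, MI24h, MI6h_R and Sham. In each panel the 3 MI1h_R points lie below the 3 MI24h points, for example 68.2 to 96.7 against 254.5 to 669.9 CPM for Slc2a1, and the MI6h_R means, such as 128.1 CPM for Slc2a1, lie nearer to the MI1h_R means (78.6) than to the MI24h means (436.0).

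The promoters of these genes were read for the letters ACGTG, the core of the hypoxia response element, on either strand of the 250 bases before the annotated start; a CACGTG holds the core on both strands and was counted once per promoter. In the RefSeq table (build GRCr8), 21.8% of 9076 tested genes with an entry held the core, against 23.6% of 250 genes called lower. It stood in 8 of 14 tested genes of the oxygen-response list and in 6 of 16 of the glycolysis list that had an entry. Among called members with an entry, 4 of 10 and 3 of 11 held it, and Adm, Egln1, Egln3, Pfkl, Stc2 and Vegfa did not within this window. The 60 bases around the match nearest the start are shown for the 4 called members with the smallest p that held one, with the core in capitals, to let the matches be compared.
Slc2a1: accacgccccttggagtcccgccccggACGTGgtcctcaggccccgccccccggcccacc
Aldoc: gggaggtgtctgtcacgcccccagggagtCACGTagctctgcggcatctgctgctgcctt
Bhlhe40: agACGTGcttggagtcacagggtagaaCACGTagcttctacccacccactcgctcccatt
P4ha2: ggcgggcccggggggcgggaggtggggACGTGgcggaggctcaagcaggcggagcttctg
The Slc2a1 stretch is chr5:138002444-138002503, that of Aldoc chr10:63715484-63715543, that of Bhlhe40 chr4:143174299-143174358 and that of P4ha2 chr10:38743826-38743885, all on the plus strand of GRCr8. P4ha2, a collagen prolyl hydroxylase, changed by -1.20 ± 0.23 (adjusted p = 0.00806), with adjusted p = 0.0546 and 0.0544 without MI1h_R replicate 31 (-1.14) and MI24h replicate 11 (-1.13).

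Some vascular growth signals were lower. Of 16 angiogenesis genes tested, 5 were lower in MI1h_R and 0 higher (median -0.62, 10 negative and 6 positive). Of 12 endothelial markers 1 was lower and 0 higher (median -0.32, 9 negative and 3 positive); the difference between the lists was not tested. The summed level of the 12 endothelial markers overlapped, at 1391 to 1901 CPM in MI1h_R and 1521 to 2204 CPM in MI24h. Angpt2, which loosens the contact of endothelium and pericytes, was at 13.1, 17.6 and 20.3 CPM in MI1h_R against 112.7, 46.1 and 82.0 CPM in MI24h (-2.24 ± 0.30, adjusted p = 0.00185). Pgf, placental growth factor, was at 18.7, 18.6 and 17.8 CPM in MI1h_R and at 49.3, 40.2 and 58.6 CPM in MI24h (-1.43 ± 0.28, adjusted p = 0.00806). Both calls, and that of Vegfa, held whichever library was left out. Apln, the peptide apelin made by sprouting endothelium, changed by -1.89 ± 0.39, and Nos3, the endothelial nitric oxide synthase, by -0.97 ± 0.19. The call of Apln was lost without MI1h_R replicate 11 (-1.79), MI1h_R replicate 31 (-1.80) or MI24h replicate 11 (-1.71), and that of Nos3 without MI1h_R replicate 31 (-0.84). The angiogenesis count was 3 without any 1 of MI1h_R replicates 11 or 31 or MI24h replicate 11.

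**Figure D3:**
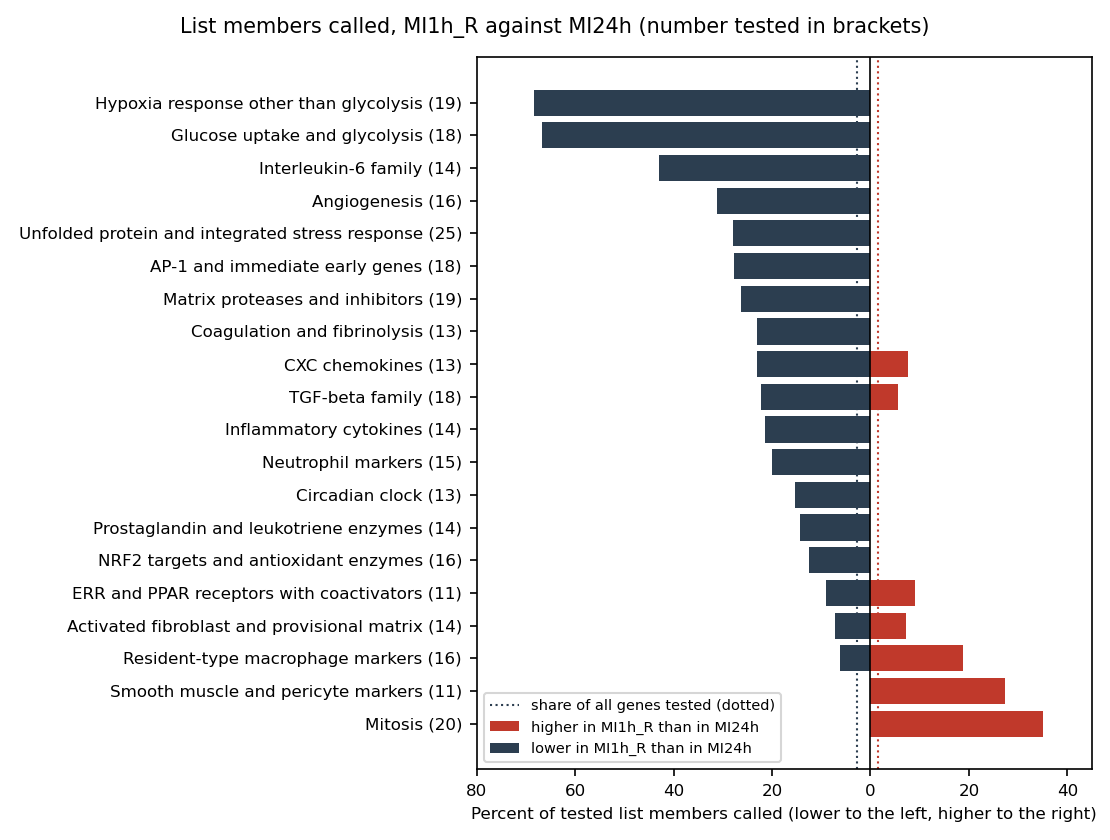
Percent of the tested members of each gene list called lower (left of 0) or higher (right of 0) in MI1h_R than in MI24h, for lists with 2 or more calls, with the number tested in brackets and the share of all genes tested as dotted lines (2.81% lower, 1.51% higher). The lists of the oxygen response (13 of 19) and glycolysis (12 of 18) reach farthest left, and mitosis (7 of 20) farthest right. Lists were chosen with earlier results of these data known, so the dotted lines are no independent test.

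Several genes of the interleukin-6 family were lower in early reperfused tissue. Of 14 tested ligands, receptors and signalling genes, 6 were lower and 0 higher, and the log2 fold change of all 14 was negative (median -0.97). The count lower was 3 without MI1h_R replicate 11 and 2 without either MI1h_R replicate 31 or MI24h replicate 11. Il6 itself was at 0.544, 2.10 and 0.952 CPM in MI1h_R libraries, against 49.9, 5.93 and 20.8 CPM in MI24h libraries. No MI1h_R library reached the lowest MI24h library, and the log2 fold change was -4.40 ± 0.79 (adjusted p = 0.00573). It stayed called with each library left out, at -3.46 without MI24h replicate 11 and -5.05 without MI1h_R replicate 31. Socs1, which damps cytokine signals through JAK kinases, was at 4.59, 3.63 and 4.06 CPM in MI1h_R and at 20.99, 12.2 and 9.67 CPM in MI24h (-1.80 ± 0.28, adjusted p = 0.00254), also called throughout. The ligands Lif (-4.21 ± 0.82) and Il11 (-2.92 ± 0.72) and the inhibitor Socs3 (-1.82 ± 0.41) were called with all libraries. Without MI24h replicate 11 none of these 3 was called, at -3.15, -1.81 and -1.26; all 3 also lost the call without MI1h_R replicate 31 (-3.90, -2.38 and -1.63). Lif was -4.82 without MI1h_R replicate 41, and Il11 and Socs3 lost the call without MI1h_R replicate 11 (-3.18 and -1.92). The changes of Lif and Il11 rest on low counts in MI1h_R. Lif had 6, 4 and 15 counts in MI1h_R and 307, 49 and 108 in MI24h. Il11 had 39, 3 and 54 in MI1h_R and 482, 87 and 151 in MI24h.

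Between MI1h_R and MI24h, few neutrophil genes were called and the calls depended on single libraries of both groups, while in the pair with F, given below, 11 of 15 markers were lower. Of 15 neutrophil markers, 3 were lower in MI1h_R and 0 higher, and all 15 log2 fold changes were negative (median -1.51). The count was 0 without MI1h_R replicate 31 or MI24h replicate 11, 1 without MI1h_R replicate 11 and 6 without MI24h replicate 21. Their summed level was 559.8, 1022 and 1009 CPM in MI1h_R, against 3562, 649.8 and 1357 CPM in MI24h, so the groups overlapped and MI24h replicate 11 was the highest by far. Mmp8, the collagenase of neutrophil granules, was at 7.62, 12.1 and 14.2 CPM in MI1h_R and at 130.9, 7.76 and 43.5 CPM in MI24h (-2.42 ± 0.61, adjusted p = 0.0298). Mmp9, gelatinase B, was called at -2.21 ± 0.57 and Il1r2, the interleukin-1 decoy receptor, at -2.31 ± 0.60. Without MI24h replicate 11 the 3 changes were -1.17, -1.13 and -1.62, none called; all 3 also lost the call without MI1h_R replicate 11 (-2.20, -2.12 and -1.99) or 31 (-2.47, -2.17 and -2.90), and Il1r2 without MI1h_R replicate 41 (-2.18) or MI24h replicate 41 (-2.33). S100a9, an abundant calcium-binding protein of neutrophils, had a log2 fold change of -0.65 ± 0.51 (adjusted p = 0.487), and of 0.27 without that ligated library.

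Among 13 genes of the CXC chemokine list, 3 were lower and 1 was higher. The neutrophil-attracting ligands Cxcl2 (1.17, 3.41 and 5.01 CPM in MI1h_R, 49.9, 7.70 and 35.9 CPM in MI24h) and Cxcl3 (0.389, 2.69 and 1.14 CPM in MI1h_R, 40.2, 5.07 and 21.1 CPM in MI24h) changed by -3.27 ± 0.72 and -3.96 ± 0.76. Cxcl12, the stromal ligand that holds CXCR4-bearing cells in tissue, went the other way, with 126.3, 79.3 and 97.4 CPM in MI1h_R and 4.88, 57.2 and 11.7 CPM in MI24h (2.03 ± 0.56, adjusted p = 0.0473). Every MI1h_R library lay above every MI24h library in CPM, and Sham hearts held more than either, at 250.7, 190.5 and 282.8 CPM. The deposited TPM of Cxcl12, also scaled for transcript length, overlapped. They were 54.68, 27.88 and 112.28 in MI1h_R and 3.93, 36.63 and 13.74 in MI24h. Cxcl3 lost its call without MI24h replicate 11 (-3.20) and was -4.80 without MI1h_R replicate 31; Cxcl2 lost it without that library (-2.75) or MI1h_R replicate 11 (-2.88) or 31 (-3.31). The call of Cxcl12 was lost without MI1h_R replicate 11 (1.84), MI1h_R replicate 31 (2.18), MI24h replicate 11 (1.55) or MI24h replicate 41 (1.70), and the value was 3.60 without MI24h replicate 21. The part of the neutrophil markers in these cytokine and chemokine differences was not tested. None of 16 CC chemokine genes, 13 recruited macrophage markers or 28 interferon response genes was called by edgeR in either direction, and 6, 2 and 3 of them had an unadjusted p under 0.05. The summed interferon level split within both groups. It was 1610, 2165 and 5067 CPM in MI1h_R replicates 11, 31 and 41, and 4428, 4328 and 1400 CPM in MI24h replicates 11, 21 and 41.

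Part of the stress genes passed the test, all of them lower. In the list of the unfolded protein and integrated stress response 7 of 25 tested genes were lower and 0 higher (median -0.63), and in that of immediate early genes 5 of 18 (median -0.75); without MI24h replicate 11 each count was 1, and without MI1h_R replicate 31 each was 2. Without MI1h_R replicate 11 each was 3, and the first was 4 without MI24h replicate 41 and 11 without MI24h replicate 21. Of 11 heat shock chaperone genes 1 was lower (median -0.13, 5 positive and 6 negative), and of 16 NRF2 targets and antioxidant enzymes 2 were lower (median -0.32). Trib3, a pseudokinase switched on by ATF4 and CHOP, was at 3.73, 5.44 and 3.36 CPM in MI1h_R and at 45.7, 9.17 and 32.5 CPM in MI24h (-2.80 ± 0.50, adjusted p = 0.00573). Maff, a small basic leucine zipper factor, was at 24.2, 22.6 and 33.3 CPM in MI1h_R against 125.0, 63.9 and 87.6 CPM in MI24h (-1.79 ± 0.23, adjusted p = 0.00185). These 2 were called whichever library was left out. The chaperone Hyou1 (-0.96 ± 0.18) lost its call without MI24h replicate 11 (-0.72) only, while Hspa5, the chaperone BiP, overlapped between the groups, with 1623, 1907 and 1247 CPM in MI1h_R and 4056, 1806 and 4001 CPM in MI24h. Hspa5 was called at -1.05 ± 0.28 (adjusted p = 0.0377), and with any library but MI24h replicate 21 left out it was not, at -0.87 to -1.20. Derl3, of the degradation machinery of misfolded proteins, changed by -3.18 ± 0.64, and the AP-1 members Fosl1 and Junb by -1.23 ± 0.30 and -1.43 ± 0.30. Without MI24h replicate 11 these were -2.90, -0.99 and -1.17 and not called; Derl3 and Fosl1 were also lost without MI1h_R replicate 11 (-2.86 and -1.24), and Fosl1 and Junb without MI1h_R replicate 31 (-1.20 and -1.26).

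Some genes of cell division were higher after early reperfusion. Of 20 tested mitosis genes, 7 were higher and 0 lower, beside 1.51% of all genes called higher, and the log2 fold change of all 20 was positive (median 1.23). Of 22 DNA replication genes 1 was higher, with a median of 0.63. The summed mitosis level was 657.9, 604.7 and 385.8 CPM in MI1h_R, 182, 274.6 and 230.2 CPM in MI24h, 219.4, 231.6 and 258.5 CPM in MI6h_R and 198.1, 263.1 and 122.3 CPM in Sham. Every MI1h_R library lay above every library of the other 3 groups, and MI1h_R replicate 41 was the lowest of its group.

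Nusap1, which bundles spindle microtubules, was at 22.5, 19.9 and 10.1 CPM in MI1h_R and at 1.97, 6.17 and 6.38 CPM in MI24h (1.85 ± 0.42, adjusted p = 0.0187). Bub1, a kinase of the spindle checkpoint, was at 38.9, 38.0 and 23.9 CPM in MI1h_R, against 12.2, 15.6 and 15.1 CPM in MI24h (1.23 ± 0.24, adjusted p = 0.00806). Mki67, the proliferation antigen Ki-67, was at 112.7, 118.5 and 79.3 CPM in MI1h_R and at 32.3, 47.6 and 28.5 CPM in MI24h (1.52 ± 0.36, adjusted p = 0.0231). The midzone motor Kif23 (1.47 ± 0.36) and the midzone bundler Prc1 (1.23 ± 0.34) were called too, and the mitotic kinase Cdk1 missed the threshold (1.22 ± 0.37, adjusted p = 0.0692).

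No mitosis gene kept its call in every fit with a library left out. The number higher was 0 without MI24h replicate 11, 1 without MI1h_R replicate 11 or 31, 2 without MI24h replicate 41 and 14 without MI1h_R replicate 41. Over those fits and that without MI24h replicate 21, the log2 fold change stayed between 1.11 and 1.43 for Bub1, 1.48 and 2.13 for Nusap1, 1.37 and 1.77 for Mki67, 1.34 and 1.70 for Kif23 and 1.00 and 1.45 for Prc1. Bub1 lost its call without MI24h replicate 11 alone.

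**Figure D4:**
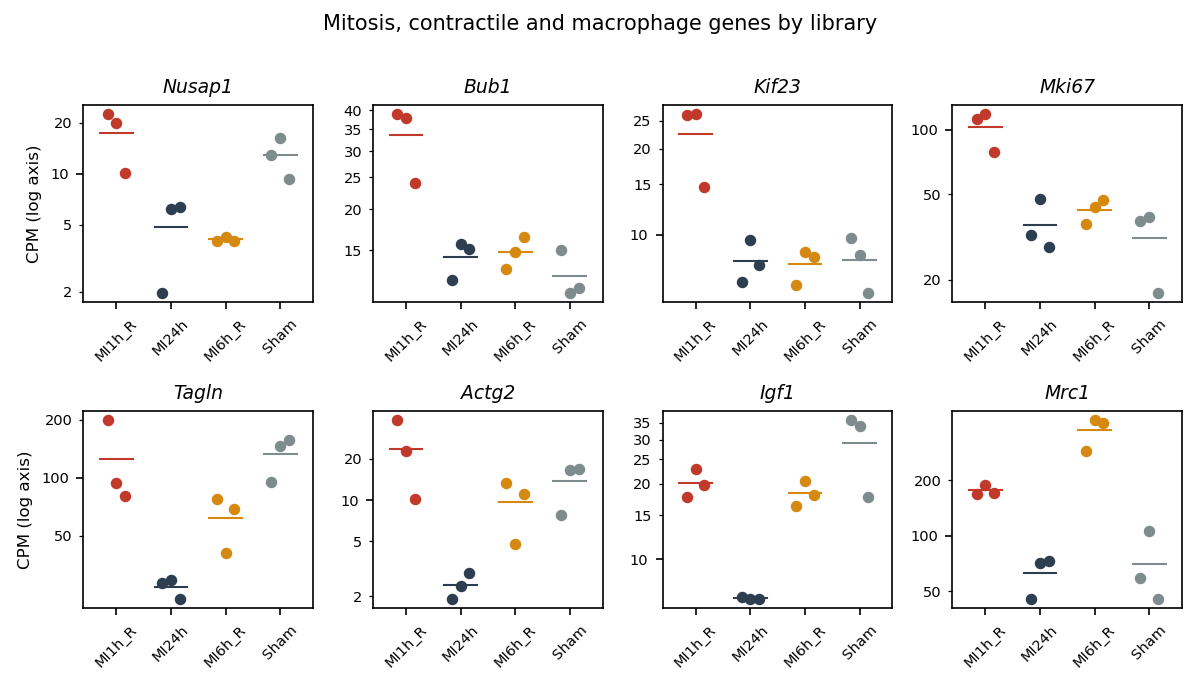
CPM by library (log axis; points are libraries, bars group means) of 4 mitosis genes (top), the contractile genes Tagln and Actg2 and the macrophage-linked genes Igf1 and Mrc1 (bottom) in MI1h_R, MI24h, MI6h_R and Sham. All MI1h_R points lie above all MI24h points, for example 80.3 to 199.1 against 23.4 to 29.3 CPM for Tagln, and Mrc1 is highest in MI6h_R.

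Promoters of mitosis genes often carry a cell cycle homology region, TTTGAA. These letters stood on either strand of the 250 bases before the start in 10.4% of 9076 tested genes with a RefSeq entry, in 31 of 142 genes called higher (21.8%), in 17 of 250 called lower (6.8%) and in 7 of 16 tested mitosis genes. Of the 6 called mitosis genes with an entry, 3 held them, and 60 bases around the match nearest the start are shown for each, with the letters in capitals.
Mki67: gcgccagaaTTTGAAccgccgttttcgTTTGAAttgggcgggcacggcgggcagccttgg
Kif23: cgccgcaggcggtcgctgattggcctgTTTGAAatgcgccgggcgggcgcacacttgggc
Prc1: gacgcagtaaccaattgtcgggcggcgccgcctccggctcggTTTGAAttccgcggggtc
In GRCr8 these are chr1:199952660-199952719 on the minus strand for Mki67, chr8:71320631-71320690 on the minus strand for Kif23 and chr1:143659421-143659480 on the plus strand for Prc1. A match describes the letters and is no evidence of a bound factor.

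Macrophage genes divided. Of 16 resident-type macrophage markers, 3 were higher, 1 was lower, and 12 did not pass the test (median 0.48); 1 was higher without MI1h_R replicate 31 or MI24h replicate 11. Their summed level overlapped, at 1109 to 1337 CPM in MI1h_R and 1006 to 1226 CPM in MI24h. Igf1, the growth factor made by reparative macrophages and fibroblasts, was at 17.6, 22.9 and 19.7 CPM in MI1h_R and at 7.07, 6.97 and 6.93 CPM in MI24h (1.52 ± 0.24, adjusted p = 0.00254). F13a1, the clotting factor XIII A chain that macrophages also carry, went the other way, at 34.8, 70.8 and 67.1 CPM in MI1h_R and 277.0, 276.5 and 231.7 CPM in MI24h (-2.18 ± 0.35, adjusted p = 0.00259). Both kept their call whichever library was left out, and in Sham hearts F13a1 was at 70.2, 51.9 and 66.8 CPM. Mrc1, the mannose receptor CD206, was at 168.3, 189.0 and 171.5 CPM in MI1h_R and at 45.1, 70.7 and 72.9 CPM in MI24h (1.49 ± 0.32, adjusted p = 0.0138). Folr2, the folate receptor beta, was called at 1.56 ± 0.42. The call of Mrc1 was lost without MI1h_R replicate 31 (1.43) or MI24h replicate 11 (1.296), and that of Folr2 without any 1 library other than MI1h_R replicate 41 (1.25 to 1.76). Spp1, the osteopontin of recruited macrophages, stood at 3646, 3697 and 1809 CPM in MI1h_R and at 342.3, 1731 and 1462 CPM in MI24h, which did not pass the test (1.37 ± 1.26, adjusted p = 0.566).

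Of 15 T and NK cell markers, Cd8a alone was called. It stood at 209.8, 208.7 and 150.5 CPM in MI1h_R, against 14.5, 74.8 and 24.5 CPM in MI24h (2.32 ± 0.61, adjusted p = 0.0372); in rats the CD8 alpha chain is also found on NK cells and some macrophages. Cd8b, its partner on T cells, had 17.4, 13.9 and 13.7 CPM in MI1h_R and 1.46, 10.9 and 1.99 CPM in MI24h and did not pass the test (1.63 ± 0.57, adjusted p = 0.109). The call of Cd8a was lost without MI1h_R replicate 11 (2.24), MI1h_R replicate 31 (2.25), MI24h replicate 11 (1.93) or MI24h replicate 41 (2.08), and its value was 3.28 without MI24h replicate 21.

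A few contractile genes of smooth muscle type were higher. Tagln, the actin-binding protein SM22 of smooth muscle cells and myofibroblasts, was at 199.1, 94.3 and 80.3 CPM in MI1h_R and at 28.6, 29.3 and 23.4 CPM in MI24h (2.20 ± 0.34, adjusted p = 0.00254). Actg2, the enteric smooth muscle actin, was at 38.1, 22.8 and 10.2 CPM in MI1h_R and at 1.90, 2.38 and 2.95 CPM in MI24h (3.29 ± 0.56, adjusted p = 0.00433). Both were called whichever library was left out, and the MI1h_R level of Tagln did not pass the test against Sham (-0.09, adjusted p = 0.835). Of 11 smooth muscle and pericyte markers 3 were higher, Tagln, Cnn1 (1.52 ± 0.37) and the pericyte gene Rgs5 (1.39 ± 0.32), while the list median was -0.22 and its summed level overlapped, at 5293 to 7770 CPM in MI1h_R and 5179 to 8620 CPM in MI24h. Cnn1, calponin, lost its call without MI1h_R replicate 11 (1.14), MI1h_R replicate 31 (1.68), MI24h replicate 11 (1.43) or MI24h replicate 41 (1.43), and Rgs5 without MI1h_R replicate 31 (1.39), MI24h replicate 11 (1.31) or MI24h replicate 41 (1.22).

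Few matrix genes passed the test. Of 20 fibroblast and matrix genes 1 was higher (median 0.19). Col3a1, a fibrillar collagen chain, had 2160, 1312 and 1660 CPM in MI1h_R and 482.2, 1147 and 1006 CPM in MI24h. These did not overlap and gave no call (0.96 ± 0.37, adjusted p = 0.143). Its deposited TPM did overlap, at 449.19, 253.32 and 378.98 in MI1h_R and 111.63, 288.48 and 200.35 in MI24h. Of 19 matrix proteases and inhibitors 5 were lower (median -0.58), Mmp8 and Mmp9 among them, and 0 were lower without MI1h_R replicate 31 or MI24h replicate 11 and 1 without MI1h_R replicate 11. The other calls were the proteoglycan-cleaving Adamts1 (-0.82 ± 0.19), Adamts4 (-2.27 ± 0.48) and Adamts9 (-1.56 ± 0.30). Adamts4 stood at 12.9, 22.2 and 43.7 CPM in MI1h_R and at 175.8, 133.1 and 72.7 CPM in MI24h. Without MI1h_R replicate 31 the changes were -0.91, -2.16 and -1.46 and without MI24h replicate 11 -0.85, -1.97 and -1.33, none called; Adamts1 and Adamts4 also lost the call without MI1h_R replicate 11 (-0.71 and -1.95) and Adamts1 without MI24h replicate 21 (-0.74).

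Heart muscle and mitochondrial genes showed small differences between MI1h_R and MI24h, few past the test. The summed level of 11 cardiomyocyte markers was 13150, 13550 and 11100 CPM in MI1h_R, 8822, 11560 and 12290 CPM in MI24h, and 75990, 61700 and 112500 CPM in Sham. Actc1, cardiac actin, was at 3797, 4460 and 2423 CPM in MI1h_R and at 1020, 3234 and 2841 CPM in MI24h, which overlap (0.59 ± 0.41, adjusted p = 0.429). None of 30 nuclear genes of oxidative phosphorylation (median 0.41), 24 of fatty acid uptake and oxidation (median 0.30) or 23 of the citric acid cycle (median 0.33) was called by edgeR in either direction; 29, 19 and 22 of them had positive log2 fold changes, and 9, 3 and 4 had an unadjusted p under 0.05. Atp5f1a, a subunit of ATP synthase, changed by 0.41 ± 0.27 (adjusted p = 0.402) and Acadm, the medium-chain acyl-CoA dehydrogenase, by 0.46 ± 0.39 (adjusted p = 0.52). Among 21 calcium handling and ion channel genes Gja5, the atrial and arterial connexin 40, was the single call, at 33.7, 23.4 and 37.1 CPM in MI1h_R and 3.43, 11.7 and 14.1 CPM in MI24h (1.68 ± 0.37, adjusted p = 0.0155), lost without MI1h_R replicate 11 (1.63) or MI24h replicate 11 (1.28). The calcium buffer gene Casq2 had a change of 0.56 ± 0.34 (adjusted p = 0.356). Myl2, the ventricular myosin light chain, was called at 3.61 ± 0.83 on low values, 3.11, 5.95 and 13.5 CPM in MI1h_R and 0.656, 0.367 and 0.823 CPM in MI24h, and Sham hearts listed it at 3.02, 4.82 and 11.95 CPM. It lost the call without MI1h_R replicate 31 (3.75), MI24h replicate 11 (3.66) or MI24h replicate 21 (3.34), and was 2.88 without MI1h_R replicate 41. Myl2 had 40, 82 and 213 counts in MI1h_R and 9, 6 and 12 in MI24h. The light chain gene Myl3 had 12559 to 26428 counts in these libraries. Whether the Myl2 entry captures the reads of that gene was not tested, so its change is not read as one of heart muscle.

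The estrogen-related receptors, orphan nuclear receptors that drive mitochondrial genes in heart and that the title of the study names, did not pass the test. Esrra was at 91.0, 80.2 and 108.7 CPM in MI1h_R and at 109.6, 110.0 and 125.8 CPM in MI24h (-0.30 ± 0.16, adjusted p = 0.299). Esrrb, at 0.700, 0.726 and 1.97 CPM in MI1h_R and 2.92, 2.14 and 0.891 CPM in MI24h, changed by -0.79 ± 0.67 (adjusted p = 0.53), and Esrrg, at 7.69, 4.79 and 9.14 CPM in MI1h_R and 9.47, 5.07 and 6.31 CPM in MI24h, by 0.06 ± 0.44 (adjusted p = 0.957). The groups of the coactivator Ppargc1a nearly touched in CPM, at 2.33, 2.83 and 4.89 in MI1h_R against 1.31, 2.32 and 1.303 in MI24h. Ppargc1a did not pass the test (1.02 ± 0.84, adjusted p = 0.512). Its deposited TPM overlapped, at 1.01, 2.59 and 3.16 in MI1h_R and 1.22, 1.92 and 1.05 in MI24h. The fatty acid receptor Ppara changed by 0.35 ± 0.71 (adjusted p = 0.812). Of the 11 receptors and coactivators tested, Pparg, the adipose-type PPAR, was higher (0.97 ± 0.23, adjusted p = 0.0234) and the ubiquitous Ppard lower (-1.20 ± 0.29, adjusted p = 0.0234). Pparg lost its call without MI1h_R replicate 11 (1.01), MI1h_R replicate 31 (0.84), MI24h replicate 11 (0.86) or MI24h replicate 21 (0.91), and Ppard without MI1h_R replicate 11 (-1.18), MI1h_R replicate 31 (-1.06) or MI24h replicate 11 (-0.77).

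Some of the largest increases were in short transcripts that were highest in a single library. Rpl41, of the large ribosomal subunit, was at 12.9, 23.2 and 110.2 CPM in MI1h_R and at 2.48, 3.48 and 3.91 CPM in MI24h (3.89 ± 0.62, adjusted p = 0.00254). ATP8, an ATP synthase subunit of the mitochondrial genome, was at 5.52, 17.2 and 75.5 CPM in MI1h_R and at 3.86, 2.26 and 3.77 CPM in MI24h (3.32 ± 0.66, adjusted p = 0.00928). In all 4, with the small-subunit genes Rps28 (2.56 ± 0.61) and Rps29 (1.94 ± 0.48), MI1h_R replicate 41 held the most. Without it the changes were 2.45 for Rpl41, 1.79 for ATP8, 1.72 for Rps28 and 1.39 for Rps29, with Rpl41 and ATP8 still called. ATP8 lost its call without MI24h replicate 11 (3.44), Rps28 without MI24h replicate 11 (2.57) or 21 (2.34), and Rps29 without MI1h_R replicate 31 (2.08) or MI24h replicates 11 (1.82) or 21 (1.78). In the pair of groups with F none of these was called higher in MI1h-23h-F, and ATP8 was lower there (-1.89, adjusted p = 0.0491). Ribosomal protein genes together held 4.24% ± 0.121 of counts in MI1h_R and 3.18% ± 0.719 in MI24h (SD, n = 3 each), and the genes in the lowest decile of transcript length, as the ratio of counts to TPM gives it, had a median log2 fold change of 0.24; their part in these results was not tested. The counts of Rps29 were identical to those of another symbol, so its reads could belong to either.

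The largest changes by size not given so far included Hcar2, a receptor for ketone bodies and niacin on myeloid cells, at 1.71, 4.35 and 4.70 CPM in MI1h_R and 64.1, 8.80 and 15.3 CPM in MI24h (-3.02 ± 0.56). Cyp4f18, a leukotriene-oxidising cytochrome of mouse myeloid cells, changed by -3.62 ± 0.69, and Ptges, the inducible prostaglandin E synthase, by -3.59 ± 0.79. All 3 lost the call without MI24h replicate 11, at -1.74, -2.33 and -2.69. Cyp4f18 and Ptges also lost it without MI1h_R replicate 31 (-3.62 and -4.13), and Ptges without MI1h_R replicate 11 (-3.18). Ptges had low counts, 3, 17 and 12 in MI1h_R and 241, 48 and 99 in MI24h. It belongs to the prostaglandin and leukotriene list, where 2 of 14 genes were lower, beside 2.81% of all genes. On the other side stood Slc26a10 (2.42 ± 0.58), Smpd3, a neutral sphingomyelinase (2.03 ± 0.52), and Prom1, the surface protein prominin-1 (1.85 ± 0.41), called with all libraries. Without MI24h replicate 11 these were 2.17, 1.80 and 1.58, without MI1h_R replicate 11 2.40, 1.80 and 1.83, and without MI1h_R replicate 31 2.62, 2.06 and 1.81, none called; Slc26a10 and Smpd3 were not called without MI24h replicate 41 (2.16 and 1.87) either, and Slc26a10 was 3.14 without MI24h replicate 21.

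The groups with F set early reperfusion against ligation in other libraries. Both of these groups carry F, so the pair is not a repeat under the same conditions. MI1h-23h-F differed from MI24h-F in 1832 genes, 1041 higher (8.87%) and 791 lower (6.74%). Of the 177 genes higher in MI1h_R than in MI24h, 65 were also higher with F, which is 36.7% of that list and 6.24% of the F list. Of the 330 lower genes 188 were also lower with F, 57% of that list and 23.8% of the F list, and 1 higher and 3 lower genes were called in the opposite direction. The sign matched in 153 of the 177 and 300 of the 330, beside 7046 of all 11742 genes; across all genes the log2 fold changes had a Pearson's r of 0.451 and a Spearman's rho of 0.353, where genes are not independent replicates. In the lists, 15 of 19 oxygen-response genes and 11 of 18 glycolysis genes were lower with F and 10 of 20 mitosis genes were higher. Of 15 neutrophil markers, 11 were lower in MI1h-23h-F than in MI24h-F and 0 higher (median -2.11, all 15 negative). Lower with F were also 8 of 13 genes of the CXC chemokine list and 15 of 25 of the unfolded protein list, with 1 higher in each.

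Slc2a1 stood at 48.1, 47.1 and 53.3 CPM in MI1h-23h-F and at 270.9, 396.9 and 327.0 CPM in MI24h-F (-2.74, adjusted p = 0.000677). Il6 was at 0.512, 0.314 and 0.504 CPM in MI1h-23h-F and at 20.1, 37.7 and 26.2 CPM in MI24h-F (-5.96, adjusted p = 0.00103), and Tagln at 119.1, 123.5 and 93.3 CPM in MI1h-23h-F and 19.9, 20.7 and 21.4 CPM in MI24h-F (2.44, adjusted p = 0.000959). Muscle genes did pass the test there: 8 of 11 cardiomyocyte markers, 22 of 30 nuclear oxidative phosphorylation genes and 16 of 24 fatty acid genes were higher with F. The difference between the 2 contrasts was tested as an interaction, and edgeR called 0 genes, with 1990 at an unadjusted p under 0.05; DESeq2 called 225 and limma-voom with quality weights 2003. The interaction, MI1h_R over MI24h less MI1h-23h-F over MI24h-F on the log2 scale, had a median of -1.72 for the cardiomyocyte markers (10 of 11 negative), -0.49 for the oxidative phosphorylation genes (27 of 30 negative) and -0.97 for the fatty acid genes (22 of 24 negative), beside -0.05 over all genes. For the 28 interferon response genes the median of the interaction was 1.473 (27 positive and 1 negative). None of these genes was called by edgeR for that difference.

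**Figure D5:**
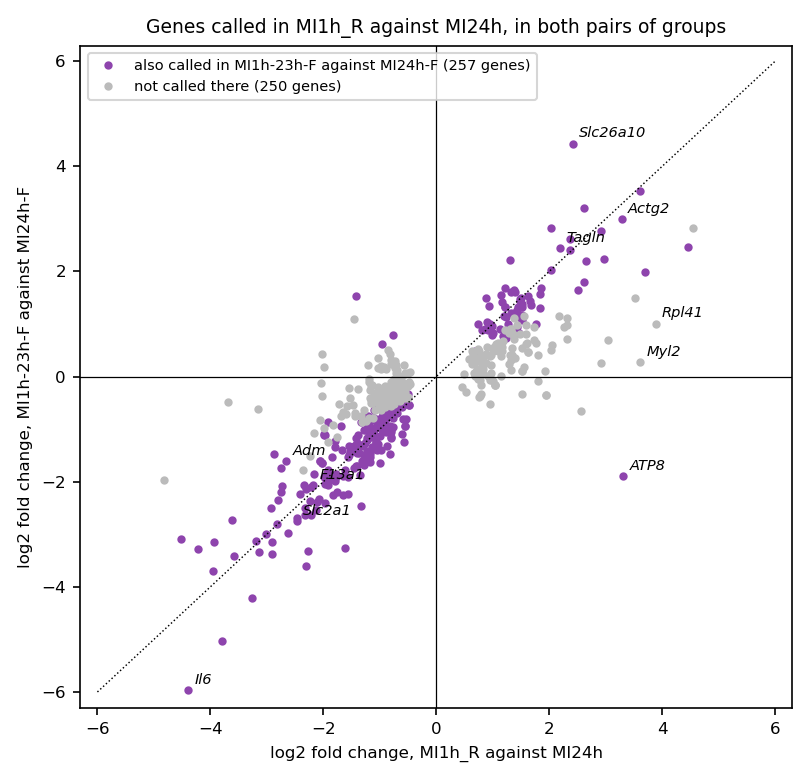
Log2 fold change of MI1h_R over MI24h (horizontal) against MI1h-23h-F over MI24h-F (vertical) for the 507 genes called in MI1h_R against MI24h; purple points were also called in the pair with F and grey points were not, and the dotted line marks equal values. Most points lie in the lower left and upper right fields (300 of 330 and 153 of 177), and ATP8 lies at the lower right.

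Early and late reopening were compared directly, since both share the ligated group. MI1h_R differed from MI6h_R in 283 genes, 148 higher (1.26%) and 135 lower (1.15%). Of 19 oxygen-response genes 0 were called in that comparison by edgeR (median -0.07), with 2 at an unadjusted p under 0.05, and of 18 glycolysis genes 1 was lower, Pfkl (-0.80, adjusted p = 0.0469). That call was lost without MI1h_R replicate 11 (-0.76) or 31 (-0.64), or MI6h_R replicate 11 (-0.67) or 21 (-0.77). Egln3 was at 73.4, 83.3 and 65.3 CPM in MI1h_R and at 86.1, 27.9 and 58.1 CPM in MI6h_R (0.37, adjusted p = 0.644). Of 28 interferon response genes 2 were higher in MI1h_R than in MI6h_R and 0 lower (median 1.985, all 28 positive). Of these 28, 22 had an unadjusted p under 0.05, and their summed level was 1018, 846.5 and 874.2 CPM in MI6h_R. Of 20 mitosis genes 5 were higher in MI1h_R than in MI6h_R. Nusap1 was at 22.5, 19.9 and 10.1 CPM in MI1h_R and at 4.02, 4.21 and 4.02 CPM in MI6h_R (2.09, adjusted p = 0.0191), and lost that call without MI1h_R replicate 11 (1.87) or 31 (1.99) or any 1 MI6h_R library (2.08 to 2.12). Apln was lower in MI1h_R than in MI6h_R, with 11.2, 11.3 and 16.8 CPM in MI1h_R and 72.5, 94.1 and 51.8 CPM in MI6h_R (-2.48, adjusted p = 0.00624), and was called whichever library was left out. Mrc1 was at 287.3, 424.1 and 411.0 CPM in MI6h_R, above each of the other groups, and its difference from MI1h_R missed the threshold (-1.09, adjusted p = 0.0687).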

How the data were processed

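Poly-A RNA was purified from total RNA of the infarct zone and sequenced, per the labels' protocols. Reads were processed with STAR 2.7.3a, RSEM 1.3.1 and the rat build rn7, per the submitters' processing notes. The deposited expected counts are whole numbers, and TPM values, scaled for transcript length and depth, were deposited beside them. Genes were filtered with filterByExpr over the 7 groups, scaled by TMM factors and fitted in edgeR 4.0.16 (R 4.3.3) with the quasi-likelihood test on all 21 libraries. Values called CPM are counts scaled to a common library size with those factors, and log2 fold changes were computed from the deposited counts. Adjustment of p-values followed Benjamini and Hochberg across the 11742 genes, with a threshold of 0.05. DESeq2 1.42.0 and limma 3.58.1 were alternatives, the latter also on log2(deposited TPM + 1), which understates the change of low genes. The code was tested on simulated data. Genes were named as the 12 largest changes per direction among called genes with a mean of at least 10 CPM and no overlap, and by p and CPM within 42 lists. Members and lists were chosen with earlier results of these data known. Further genes were named after their values were seen. Of 723 list symbols, 638 had an entry and 623 were tested. An exact permutation test of 3 against 3 cannot go below p = 0.1.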

Additional observations from a re-analysis of the deposited data

Results flagged for a closer look

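The effects of early and late reopening, both measured against MI24h, differed in 283 genes by edgeR's test of MI1h_R against MI6h_R. The genes below, taken from those named in the text, were flagged because they passed that test and were also called in MI1h_R against MI24h. Each value is a log2 fold change of MI1h_R over MI6h_R. Actc1 passed the test against MI6h_R but was not called against MI24h, and is left out. Among vascular genes it was -2.48 for Apln, -1.17 for Angpt2, -1.36 for Pgf and -1.15 for Nos3. Mitosis genes stood higher in MI1h_R, by 2.09 for Nusap1, 1.18 for Bub1, 1.5 for Kif23 and 1.37 for Prc1, as did the condensin subunit gene Smc4, by 0.92. The values of Fosl1 and Maff were -1.21 and -1.01, that of Cxcl3 was -3.43, those of Adamts1 and Adamts9 were -0.87 and -1.32, that of Pfkl was -0.80 and that of the lipogenic factor Srebf1 was -0.68. Short or low transcripts had large positive values, 4.55 for Rpl41, 3.63 for ATP8, 3.16 for Rps28, 2.67 for Rps29 and 4.78 for Myl2. Without MI1h_R replicate 41 these were 3.11, 2.10, 2.33, 2.12 and 4.05, all still called. Cxcl3 was -4.26 and not called without MI1h_R replicate 31, and Myl2 was 5.38 and not called without MI6h_R replicate 11. Of these genes, Apln and Rpl41 were called whichever of the 6 libraries was left out. Nos3 lost its call without MI1h_R replicate 31 (-1.03), and ATP8, Myl2 and Rps29 lost theirs without MI6h_R replicate 11 or 21. The others lost theirs in 3 to 5 of the 6 fits.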

How the results depend on the processing

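Between MI1h_R and MI24h, 177 genes were higher and 330 lower. DESeq2 called 408 and 639, limma-voom with quality weights 615 and 894, limma on log2(TPM + 0.1) 101 and 322, scaling by library size alone 164 and 218, the fit of 12 libraries without F 16 and 57, and the 6 libraries alone 0 and 0. Higher genes were 23.4% of calls on log2(TPM + 1) and 23.9% on log2(TPM + 0.1), where the median of all genes moved to -0.114. With 1 library left out the counts ran from 9 to 376 higher and from 59 to 567 lower. MI1h_R against MI6h_R gave 283 calls; DESeq2 gave 912, limma-voom 3020, log2(TPM + 1) 966, log2(TPM + 0.1) 669, library size alone 180, the groups alone 86, 12 libraries 13, and 22 to 1281 with a library left out. MI1h-23h-F against MI24h-F gave 1832 calls, 4815 by limma-voom, 3458 with the groups alone and 644 to 1599 with a library left out. For the difference of the effects without and with F, DESeq2 called 225 genes, limma-voom 2003, and fits with a library left out 0 to 29, against 0. With the replicate block the counts were 7 higher and 46 lower, 3 for MI1h_R against MI6h_R and 0 for the groups with F; same-numbered libraries deviated in opposite ways (correlations -0.277 for number 11 and -0.538 for number 41), so the numbers were not taken as pairs. Among the genes whose values are printed, the direction reversed for 3, none of them called. Esrrg was -0.036 on log2(TPM + 1), -0.058 on log2(TPM + 0.1), -0.017 with the replicate block, and -0.152 to 0.343 with a library left out. Ppara was -0.114 by limma-voom and -0.083 to 0.652 with a library left out, and S100a9 ran from -1.089 to 0.272. The cause was not tested. Removing a length trend was chosen after seeing the data and gave 231 higher and 319 lower genes. With 3 libraries a group, a missing call does not show that levels were equal.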

Other observations

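Some genes outside the lists described above kept their call whichever of the 6 libraries was left out, and were chosen after their values were seen. Gys1, the glycogen synthase of muscle, stood at 40.2, 42.7 and 44.8 CPM in MI1h_R and at 197.0, 88.4 and 118.3 CPM in MI24h (log2 fold change -1.66 ± 0.25). Eno2, the neuronal enolase isoform, changed by -1.56 ± 0.28, and Mgarp, a mitochondrial protein gene, by -2.90 ± 0.58 on levels under 6 CPM, with -3.92 without MI1h_R replicate 31. Apold1, an endothelial early response gene, was at 42.5, 48.0 and 49.2 CPM in MI1h_R and at 120.5, 121.6 and 98.0 CPM in MI24h (-1.28 ± 0.18). Notch4, a Notch receptor of endothelium, changed by -1.16 ± 0.18.

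Further genes of this kind, which belong to no common list, are given by their values. Srebf1, which drives lipogenic genes, was at 30.3, 26.6 and 24.6 CPM in MI1h_R and at 62.2, 54.0 and 47.0 CPM in MI24h (-1.002 ± 0.16), and Insig1, which holds sterol sensors in the endoplasmic reticulum, changed by -0.97 ± 0.16. The transcription repressor gene Prdm1 changed by -1.82 ± 0.27, the cyclic AMP phosphodiesterase gene Pde4b by -1.78 ± 0.31 and the adenosine receptor gene Adora2a by -1.18 ± 0.21. Smc4, a condensin subunit that compacts mitotic chromosomes, was at 129.6, 139.8 and 89.0 CPM in MI1h_R and at 40.3, 50.3 and 52.9 CPM in MI24h (1.32 ± 0.22).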
